A study of Mus musculus with 2 samples.

Results

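The neutrophil granule genes described here are Ngp, S100a8, S100a9, Camp, Ltf, Mpo, Elane, Prtn3, Ctsg and Cebpe, 10 genes chosen by name. Every probe set whose only gene in the platform annotation was 1 of these was taken, and 9 of the 10 genes were represented, each by 1 probe set, among 18193 genes with such a probe set on the arrays. Cebpe, a transcription factor of late granulocyte development, had no probe set annotated to it alone and was not analysed here. The genes were put together with results of these arrays in view, among them the ratio of Ngp, so their values are given as a description and not as a test.

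The data are 2 Affymetrix expression arrays, 1 titled DKO and 1 titled TKO, of lineage-marker-negative thymocytes from C57BL/6J mice, with mature cells removed on magnetic beads. By the series' design text the DKO mice were LckCre(-)Cdkn2a-/-Ring1A-/-Ring1Bfl/fl and the TKO mice LckCre(+)Cdkn2a-/-Ring1A-/-Ring1Bfl/fl. In that reading both arrays share the loss of Cdkn2a and Ring1A, and floxed Ring1B meets Cre in TKO alone. The samples' genotype field instead gives loss of Ring1A and Ring1B for DKO and of Ring1A, Ring1B and Cdkn2a for TKO. Lck-Cre is a recombinase driven by the promoter of Lck, a kinase of T-lineage cells. Age, the number of mice and the time in culture were not given in the sources used here.

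Each label has 1 array, so there is no replicate error, no test was possible, and higher and lower refer to these 2 arrays only. On both arrays the mean signal, after 2% was trimmed from each end, was 497. A signal was counted as measured at or above its array's median, the floor, which was 68.8 on the DKO array and 71.8 on the TKO array. Ratios are log2 of TKO over DKO after lower signals were raised to the floor, and a gene was counted as higher or lower at 2-fold, a log2 ratio of 1. Of the targeted genes, Cdkn2a had signals of 679 on the DKO array and 18.5 on the TKO array, Ring1 had 133 and 147, and the brightest Rnf2 (Ring1B) probe set had 4149 and 4384. The Cdkn2a signal goes against the design text for DKO. The Rnf2 signals go against the genotype field for both arrays and against the design text for TKO, and Ring1 was above the floor on both arrays although either text has it lost. The sources used here do not say whether these probes lie inside the deleted exons, and outside them they check nothing. The arrays are therefore named by their labels. They also differed in sex-linked transcripts, with Xist at 124 and 16502 and the Y-linked Eif2s3y at 1711 and 55.3, so sex and label cannot be told apart in any ratio below.

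Neutrophils are short-lived phagocytes that carry antimicrobial proteins in granules laid down one after another as the cell matures. Primary (azurophil) granules form first, at the promyelocyte stage, and hold myeloperoxidase and the serine proteases elastase, proteinase 3 and cathepsin G. Secondary (specific) granules follow at the myelocyte stage and hold lactoferrin, the cathelicidin and neutrophilic granule protein, while S100A8 and S100A9 are stored in the cytosol as a calcium-binding pair, calprotectin. Developing T cells are not known to make granules of this kind.

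Short motifs in the promoters are shared by some of these genes. The stretches shown are from RefSeq (GRCm38.p6) promoters, matched for 9 of the 10 genes (not Cebpe), and are read 5′ to 3′ on the gene's strand, with positions counted backwards from the gene's start. The motifs were chosen after the sequences had been seen. The first is TTGGGCAA, a C/EBP-type sequence, searched on both strands in the 250 bases before the start. It was found in 233 of 32851 promoters (0.709%) and in 2 of the 9 granule genes. Ngp holds it at positions -138 to -131 as the reverse complement TTGCCCAA and at -11 to -4 as such, and Ltf holds it at -75 to -68. These are shown whole, with the matches in capitals, because Ngp and Ltf are both secondary granule genes and stood on opposite sides of 0.
Ngp, chr9:110419558-110419807, plus strand: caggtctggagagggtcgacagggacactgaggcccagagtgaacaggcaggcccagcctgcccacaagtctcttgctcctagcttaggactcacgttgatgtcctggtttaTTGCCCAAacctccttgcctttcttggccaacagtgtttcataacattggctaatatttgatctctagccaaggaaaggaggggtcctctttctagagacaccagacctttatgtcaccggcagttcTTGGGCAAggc
Ltf, chr9:111019042-111019291, plus strand: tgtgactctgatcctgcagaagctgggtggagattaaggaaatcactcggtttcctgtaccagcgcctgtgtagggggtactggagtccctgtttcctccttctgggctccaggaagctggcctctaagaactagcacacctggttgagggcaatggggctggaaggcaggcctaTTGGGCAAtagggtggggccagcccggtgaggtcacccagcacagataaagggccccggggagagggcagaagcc

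The second motif is AGGAAGT, an ETS-type sequence of the kind bound by PU.1, searched in the same way and not overlapping the first in any of these promoters. It was found in 2525 of the 32851 promoters (7.69%) and in 5 of the 9 granule genes. These were the 4 primary granule genes, all on the sense strand, and S100a8, where it reads ACTTCCT. The 37 bases around each match are shown, since the match is what the primary granule genes have in common. A match is a run of letters and was not examined for binding.
Mpo, chr11:87793546-87793582, plus strand: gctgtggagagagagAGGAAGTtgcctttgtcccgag
Elane, chr10:79886213-79886249, plus strand: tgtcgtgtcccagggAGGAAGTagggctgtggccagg
Prtn3, chr10:79879558-79879594, plus strand: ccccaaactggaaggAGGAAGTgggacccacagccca
Ctsg, chr14:56102759-56102795, minus strand: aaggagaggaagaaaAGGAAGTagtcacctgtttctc
S100a8, chr3:90668884-90668920, plus strand: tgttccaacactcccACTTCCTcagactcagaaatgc

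Across the 9 represented genes, 2 were at least 2-fold lower on the TKO array (Ngp and S100a9), 0 were 2-fold higher and 7 were neither. Of the 11280 genes above the floor on 1 or both arrays, 0.532% were lower by 2-fold or more and 3.58% higher by as much. Ratios were negative for 7 of the 9, and for 53.5% of all genes. The median log2 ratio of the 9 was -0.67, beside -0.03 over all genes. Because the genes were gathered with such values in view, nothing further is read from these counts. In a bulk sample fewer cells of a type and less RNA per cell cannot be told apart.

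**Figure D1:**
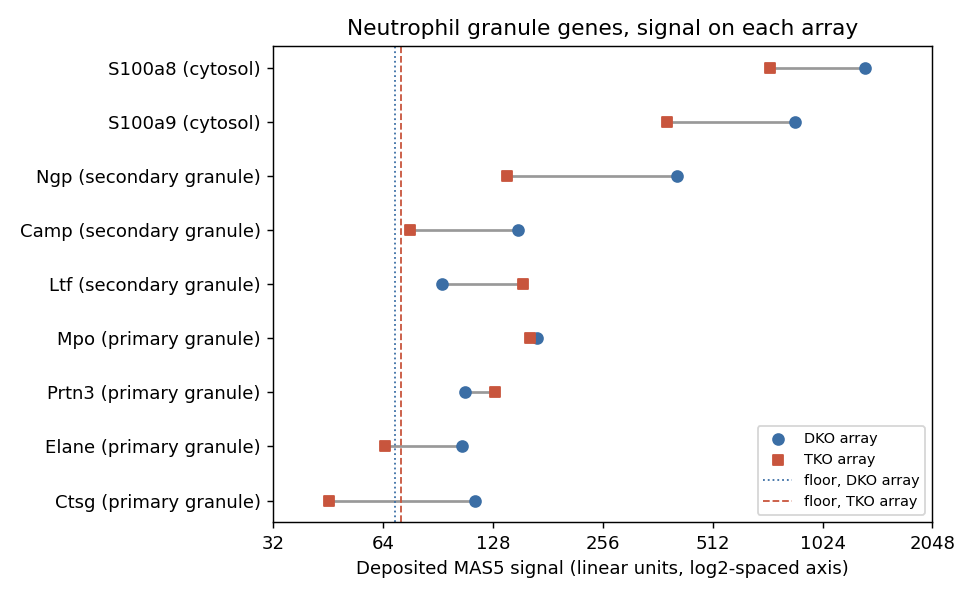
Deposited MAS5 signal of each gene (horizontal, log2-spaced axis) on the DKO array (circles) and the TKO array (squares), 1 array each, with the floor of each array as a vertical line. S100a8, S100a9, Ngp and Camp sit to the left on the TKO array, Ltf sits to the right, and Elane and Ctsg cross the floor.

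The calprotectin genes were the only 2 of the 9 above the 75th percentile of an array. S100a8 encodes the smaller subunit of the pair. Its signal was 1341 on the DKO array and 733 on the TKO array, at percentiles 87.9 and 81.3 of all probe sets. The log2 ratio was -0.87 (1.83-fold lower), short of 2-fold. The only S100a8 probe set is of a type that can cross-hybridise (_s_at), so the gene has no ratio without such probe sets. S100a9 encodes the larger subunit, and had 860 on the DKO array and 384 on the TKO array, at percentiles 83.4 and 73.6. Its log2 ratio was -1.16 (2.24-fold lower). Both partners had the smaller signal on the TKO array, S100a9 alone past 2-fold, and their log2 ratios differed by 0.29. For scale, the log2 ratio of a single probe set had a robust SD of 0.21, from genes with 2 probe sets on these arrays (4794 genes). It is the spread of the difference between the 2, divided by the square root of 2. A difference between 2 ratios, such as 0.29, therefore has a wider spread than 0.21. The SD covers disagreement between probe sets and no error between mice, RNA preparations or hybridisations.

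These neighbours lie side by side on chromosome 3 with 0 protein-coding genes between them. A run of S100 genes from S100a16 to S100a9, in the order of RefSeq, was looked at. Its ends were set by hand, and S100 genes outside it were not looked at. Of 9 genes in that run, 7 had a probe set and 5 were measured. S100a4, a calcium-binding protein of motile cells, was past 2-fold in the other direction, with signals of 1191 and 2721 (log2 ratio 1.19). S100a6 had 1035 and 1601 (log2 ratio 0.63), short of 2-fold. S100a16 had 123 and 116 (log2 ratio -0.09). The run thus held ratios of both signs within 1 locus. These neighbours were chosen after their values had been seen.

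Of the 3 secondary granule genes, only Ngp passed 2-fold. Ngp encodes neutrophilic granule protein, a cystatin- and cathelicidin-related protein of the specific granules. It had a signal of 408 on the DKO array and 139.9 on the TKO array, at percentiles 74.8 and 60.5. The log2 ratio of -1.54 (2.92-fold lower) ranked 10 from the bottom of 11280 genes. That ratio was in view when the genes were put together, so its rank is a description and not a separate result. Camp encodes the cathelicidin precursor, from which an antimicrobial peptide is cut. Its signal was 149.8 on the DKO array and 75.9 on the TKO array, where it stood at 1.06 times the floor. Its log2 ratio was -0.98 (1.97-fold lower), just short of 2-fold, and quantile normalization took it past that size, to -1.04.

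Ltf encodes lactoferrin, an iron-binding protein of the specific granule. Its signal ran the other way, at 92.8 on the DKO array and 154.7 on the TKO array. The log2 ratio was 0.74 (1.67-fold higher), not 2-fold. The signals stood at 1.35 and 2.16 times the floors. Ngp, Camp and Ltf all lie on chromosome 9, with 8 protein-coding genes between Camp and Ngp and 20 between Ngp and Ltf. The genes next to Ngp, Ptpn23 and Klhl18, had log2 ratios of -0.33 and 0.56, and those next to Camp, Nme6 and Cdc25a, had -0.17 and -0.26. None of these 4 reached 2-fold.

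The primary granule genes had low signals on both arrays, between 0.634 and 2.45 times the floor. Mpo encodes myeloperoxidase, which makes hypochlorous acid. It had 169 on the DKO array and 162 on the TKO array (log2 ratio -0.06). Prtn3 encodes proteinase 3, and had 107 and 129.9 (log2 ratio 0.27). These genes were above the floor on both arrays, and each was short of 2-fold.

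The other primary granule genes were above the floor on the DKO array alone, so that their ratios are bounds. Elane, which encodes neutrophil elastase, had 105 on the DKO array and 64.9 on the TKO array, at least 1.46-fold lower (log2 ratio -0.55). Ctsg, which encodes cathepsin G, a protease that mast cells can also contain, had 114 and 45.5, at least 1.59-fold lower (log2 ratio -0.67). As deposited, with no floor, Ctsg was 2.51-fold lower (log2 ratio -1.33) and counted as past 2-fold with Ngp and S100a9, while Elane was 1.62-fold lower (log2 ratio -0.69). Elane and Prtn3 are direct neighbours on chromosome 10, with 0 protein-coding genes between them, and lay on opposite sides of 0. Ctsg lies on chromosome 14 in a run of 15 protease genes from Cma1 to Gzmb, of which 13 had a probe set and 8 were below the floor on both arrays.

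**Figure D2:**
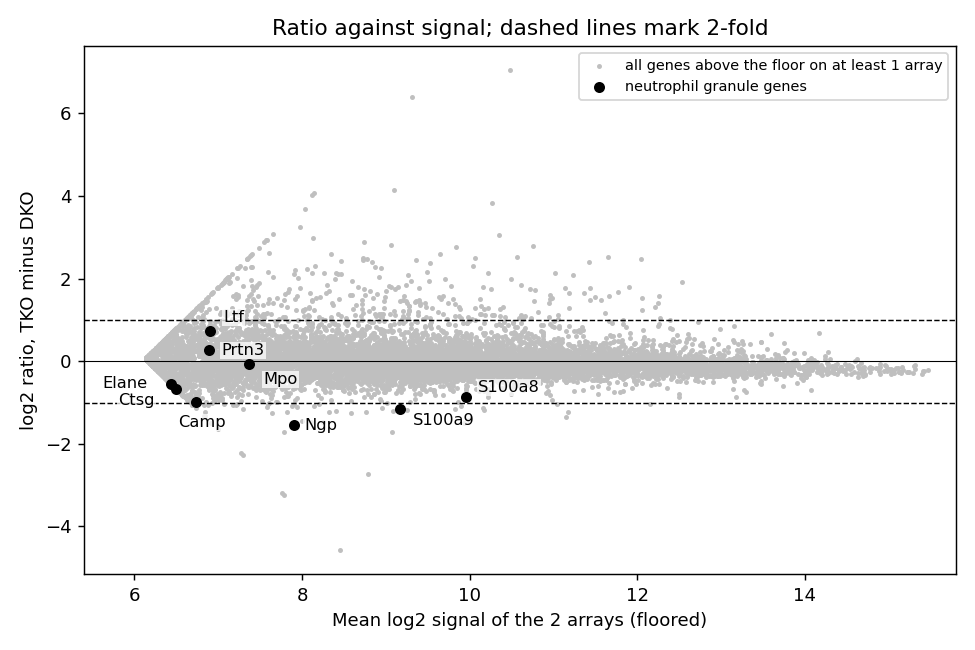
Log2 ratio of TKO to DKO (vertical) against the mean floored log2 signal of the 2 arrays (horizontal) for the 11280 genes above the floor on 1 or both arrays (grey) and the 9 neutrophil granule genes (black). Ngp and S100a9 lie below the lower 2-fold line, and Elane, Ctsg and Camp lie at the dim end, where the floor limits how far a point can fall.

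The counts were also set beside genes of like brightness, as a description. The 9 genes were gathered with such values in view, so nothing further is read from these shares either. Within the range of mean signal spanned by the 9 genes, 6013 genes were measured, with a median log2 ratio of 0.01. At least 2-fold lower were 0.881% of them, and 5.54% were at least 2-fold higher. In that range the robust SD of a single probe set, taken in the same way, was 0.24 (3376 genes). The ratio of Ngp was the largest of the 9 in size and that of Mpo the smallest.

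Genes with a pattern like that of Ngp were looked up by the distance between log2 signals over the 2 arrays. The nearest were the predicted gene Gm6958 (424 and 155, distance 0.16), Cfp (397 and 122, distance 0.20) and Bbc3 (347 and 147.0, distance 0.25). Cfp encodes the complement regulator properdin, which neutrophils also store, and Bbc3 the cell-death protein PUMA. With 2 arrays a pattern is a single ratio at a given brightness, so likeness here means little more than that.

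Other lists of granule genes had higher medians, taken over those of their genes that were measured. The first held 9 further genes. These were primary granule and lysosomal genes, an inhibitor of granule proteases, and Epx, which is also among the eosinophil markers below. Of the 9, 8 had a probe set and 6 were measured, of which 3 were higher by 2-fold or more on the TKO array and 0 lower. The median of this list was 0.91 on the log2 scale. Serpinb1a, an inhibitor of the granule proteases, was 3.43-fold higher (1496 and 5127). Lyz2 and Lyz1, the lysozyme genes, were 2.49-fold (855 and 2131) and 3.16-fold (1313 and 4147) higher. Lyz1 and Lyz2 are near-identical copies and the Lyz1 probe sets above the floor are of a type that can cross-hybridise, so signal may be shared between them. Another Lyz1 probe set, not of that type, had 18.1 and 4.56, below both floors. Without the probe set types that can cross-hybridise, the list had 2 genes higher by 2-fold or more and a median of 0.51. Ctsc, which encodes the protease that activates elastase, proteinase 3 and cathepsin G, had 3744 and 5340 (log2 ratio 0.51), not 2-fold. Its dimmer probe sets, near the floor on the DKO array, gave 1.34 (78.7 and 199) and 0.24 (74.5 and 87.7). The first of these is of a type that can cross-hybridise. Macrophages express the lysozyme genes as well.

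Of 18 further secondary and tertiary granule genes, 17 had a probe set, 11 were measured and 6 were below the floor on both arrays. These 6 were Mmp8, Cd177, Olfm4, Hp, Fcnb and Itgam. Of the 11 measured, 10 had a ratio above 0 and 1 below. The 1 below was Lcn2 (85.8 and 52.0), above the floor on the DKO array alone, with a bound of -0.26. Lcn2 and those 6 were named after their values were seen. Higher by 2-fold or more on the TKO array were 3 and lower by as much 0, and the median of the list was 0.43 (log2). Chil3, a chitinase-like protein of neutrophil granules and of macrophages, was 17.6-fold higher (131 and 2300), or 2.46 on the log2 scale instead of 4.14 at the 75th-percentile floor. Cybb, the catalytic subunit of the phagocyte oxidase, was 5.58-fold higher (185 and 1033, log2 ratio 2.48), with a log2 ratio of 1.65 as the mean over its probe sets and 1.31 at the 75th-percentile floor. Slpi, an inhibitor of elastase, was 2.40-fold higher (272 and 654). Itgb2 and Cyba, an integrin chain and an oxidase subunit of many leukocytes, had log2 ratios of 0.43 and 0.33. Anxa1, a lipid-binding protein of the tertiary granules, had 944 and 1731 (log2 ratio 0.87). With the floor at the 25th percentile 5 genes of this list were 2-fold higher, and without a floor 5 were higher and 3 lower. At the 75th-percentile floor Slpi was short of 2-fold, at 0.65.

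Of 16 genes of the neutrophil cytosol and of late maturation, 12 had a probe set and 8 were measured, with 1 past 2-fold upwards, 0 downwards and a median of 0.15 (log2). The higher one was Ncf4, an oxidase subunit (413 and 857, 2.07-fold). Alox5ap, which leukotriene synthesis needs, had 1507 and 946 (log2 ratio -0.67), and Padi4, the enzyme that citrullinates histones in neutrophil traps, had 206 and 291 (log2 ratio 0.50). Without a floor the median of this list turned to -0.15, with 2 genes higher and 1 lower.

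**Figure D3:**
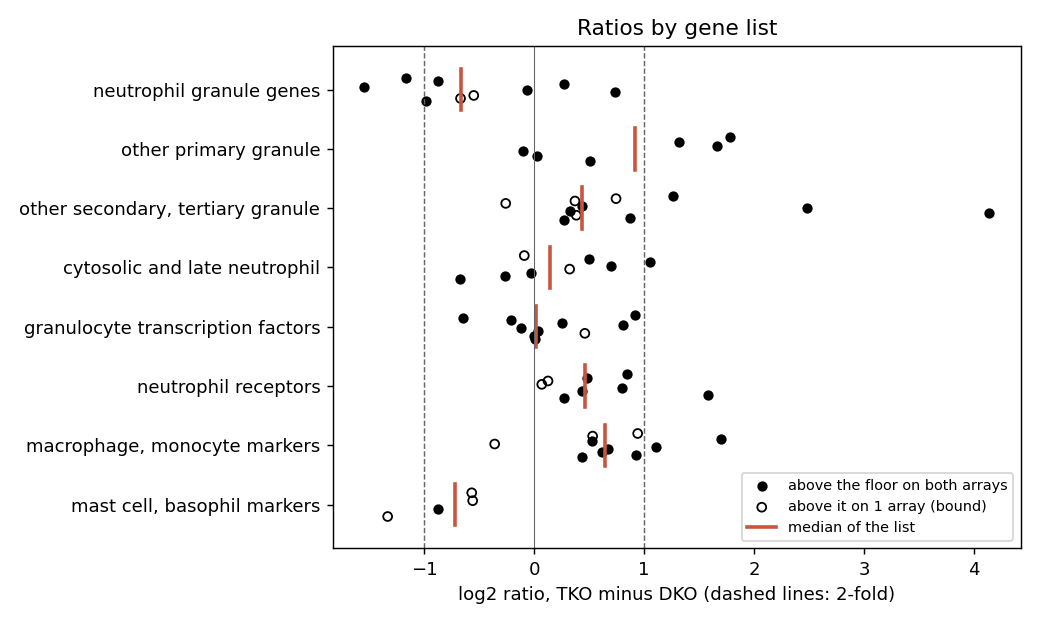
Log2 ratio of TKO to DKO (horizontal) for each measured gene of 6 neutrophil lists and of 2 marker lists, with filled points above the floor on both arrays, open points above it on 1 array (bounds) and a bar at each list's median. The medians of the neutrophil granule genes (-0.67) and of the mast cell and basophil markers (-0.72) lie below 0, and those of the other lists lie above it.

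Granulocyte transcription factors and receptors were not lower as lists. Of 11 factors, 10 were measured and 0 passed 2-fold in either direction, with a median log2 ratio of 0.02. Cebpa (60.8 and 42.5), named after its values were seen, was below the floor on both arrays. Gfi1, a repressor needed for neutrophil development and also active in early T cells, had 2097 and 1927 (log2 ratio -0.12). Runx1 had 4901 and 3127 (log2 ratio -0.65), and Myb had 17962 and 15533 (log2 ratio -0.21, or 0.17 without the probe set types that can cross-hybridise). With the floor at the 25th percentile, or with none, 1 factor was 2-fold higher. Of 16 receptors, 13 had a probe set and 8 were measured, 2 of these above the floor on the TKO array alone, so that their ratios are bounds. Over all genes 53.5% of ratios were below 0. All 8 receptor ratios were above 0, with 1 past 2-fold. It was Csf2rb, the beta chain of the receptors for GM-CSF, IL-3 and IL-5 (142 and 424, log2 ratio 1.58), which as the mean over its probe sets was at 0.82, so that 0 receptors passed. The count was also 0 at the 75th-percentile floor, 2 at the 25th, and 2 higher and 1 lower without a floor. Cxcr4, the receptor that holds immature neutrophils in the marrow and that thymocytes share, had a log2 ratio of 0.44, and Fcgr3 had 0.80. At 5 of the 13, both arrays were below the floor; these were Csf3r, Cxcr2, Fpr2, C5ar1 and Cd14, named after their values were seen. Csf3r and Cxcr2 are receptors that mature neutrophils carry, and their signals were 25.5 and 43.6, and 7.84 and 10.2.

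Markers of other cells that a lineage-negative gate could hold differed between the arrays as well. Of 14 macrophage and monocyte markers, 10 were measured, 9 with a ratio above 0 and 2 past 2-fold, and the summed signal of the 13 with a probe set was 1587 on the DKO array and 3035 on the TKO array. The 2 were Csf1r (249 and 807) and Ccr2 (242 and 519). At the 75th-percentile floor they were at log2 ratios of 0.95 and 0.32, and as the mean over probe sets Ccr2 was at 0.31. C1qa, a complement gene of macrophages, had 264 and 503 (log2 ratio 0.93). Of 11 mast cell and basophil markers, 4 were measured and 6 were below the floor on both arrays. All 4 measured had a ratio below 0, with 1 past 2-fold. Of these 4, 3 were above the floor on the DKO array alone, so that their ratios are bounds. The summed signal of the 10 with a probe set was 2207 and 1130. Most of that sum was Cpa3, a protease of mast cells and early progenitors, with 1622 and 884 (log2 ratio -0.88). Cma1 was at least 2.52-fold lower, and Tpsab1 (106 and 26.5) had a bound of -0.57, and was past 2-fold with a lower floor or none. Mcpt4 (106 and 20.0), which was above the floor on the DKO array alone, and Cma1 both belong to the same protease run as Ctsg, while Gzmc in that run (36.7 and 388) was higher, with a log2 ratio of at least 2.50. Of 8 eosinophil markers, 1 was measured, Prg2 (101 and 59.8), and 4 were below the floor on both arrays, Epx and Siglecf among them. Of 9 erythroid markers, 1 was measured, Epor, at a log2 ratio of -0.16, and Alas2 and Klf1 were under both floors. The part of these cells in the granule gene ratios was not tested.

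The measured T-lineage markers were bright on both arrays, while other lymphoid markers ranged down to near the floor. All 9 measured T-lineage markers had ratios below 0, with a median of -0.53, and 1 of them, Il2ra, was past 2-fold (log2 ratio -1.05), though not after removal of a lowess trend (-0.98) or as the mean over probe sets (-0.95). Cd3g had 22057 and 13607, Thy1 18527 and 12791, and Bcl11b 14740 and 11799, none past 2-fold. Of 9 measured B-lineage markers, 7 were past 2-fold upwards and 0 downwards, and the median log2 ratio was 1.84. In log2 ratios these were Ms4a1 (2.77), Ebf1 (2.53), Pax5 (2.01), Blnk (1.99), Cd22 (1.84), Cd79b (1.58) and Cd79a (1.22), while Igll1 and Vpreb1 were each at 0.12. As the mean over probe sets Ebf1 was at 1.83 and Pax5 at 1.13, and at the 75th-percentile floor Cd79a was at 0.70. Pax5 (74.1 and 299) stood near the floor on the DKO array and had no ratio at the 75th-percentile floor. The dendritic cell and natural killer cell lists had medians of 1.43 over 4 genes and 0.63 over 5. Past 2-fold in them were Cd74 (2.40), H2-Aa (1.92) and Klrd1 (1.08), and Itgax (0.16), Eomes (0.90) and Gzma (-0.28) were not. H2-Aa had no ratio without the probe set types that can cross-hybridise. In the dendritic cell list Flt3, Siglech and Xcr1 were below the floor on both arrays, and Zbtb46 had a bound of 0.94. Those genes were named after their values were seen.

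**Figure D4:**
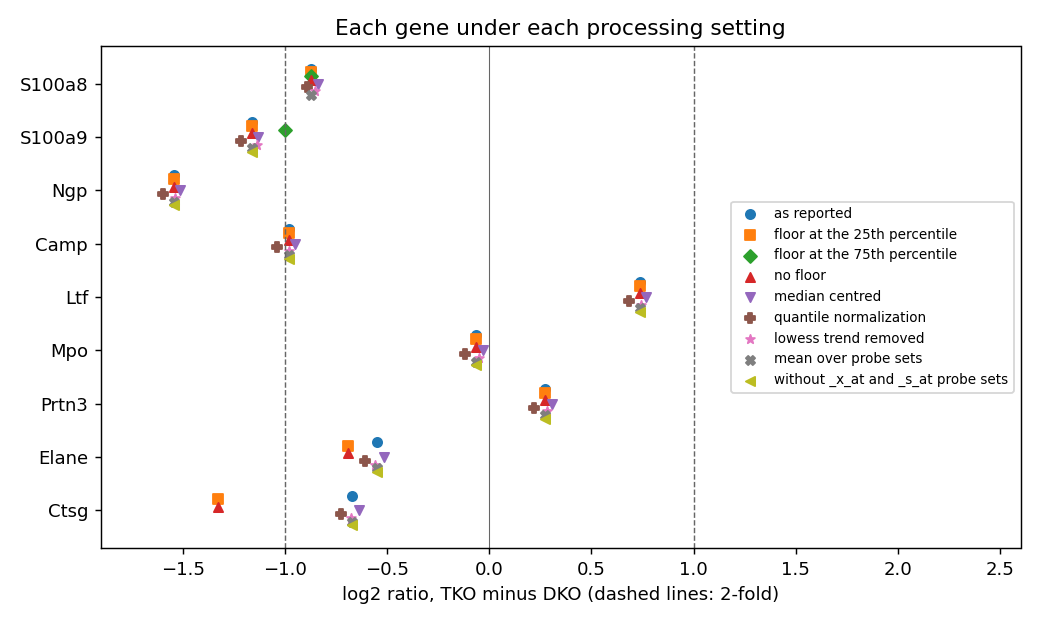
Log2 ratio of TKO to DKO (horizontal) for each of the 9 genes as reported and under 8 other processing settings (symbols). Every gene keeps its sign wherever it has a ratio, Ctsg moves past 2-fold with a low floor or none, and with the floor at the 75th percentile only S100a8 and S100a9 have a ratio. Without _x_at and _s_at probe sets S100a8 has no ratio.

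The number of granule genes past 2-fold depended on the floor. When the floors were raised to the 75th percentile (417 on the DKO array and 431 on the TKO array), Ngp, Camp, Ltf and the 4 primary granule genes were below it on both arrays and had no ratio. S100a8 was at -0.87 there too, and S100a9 became a bound of -0.997, just under 2-fold, so that 0 genes passed.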

How the data were processed

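The 2 arrays, 1 per label, were analysed from the value table of the series. It gives the deposited intensity of each probe set, not log-transformed, and the submitters' processing notes name MAS5 without a version or settings. Such signals have a local background subtracted and are scaled per array as a whole; detection calls were not used here, and the number of arrays limits the precision. Of 45037 probe sets, 34945 had 1 gene in the platform annotation, 932 several and 9160 none listed. Symbols were updated by Entrez ID through a RefSeq table (99.4% matched).

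Where a gene had several probe sets, the brightest on average (log2) stood for it; each granule gene had 1. Signals below the array median were raised to it, and genes below it on both arrays (6913) have no ratio. With 1 array per label no test was made, and 2-fold was the size rule. The genes, the 5 related lists and the 8 marker lists were chosen with earlier results of these data known. Named from each list were genes past 2-fold and the 3 brightest; others are marked as chosen after their values were seen. Mcpt4, Gzmc and the genes flanking Ngp, Camp and the S100 pair were also chosen so. The alternatives were floors at the 25th and 75th percentile or none, median centring, quantile normalization, a lowess trend (span 0.3), the mean over probe sets, and no _x_at or _s_at probe sets. The ratio procedure was tested on simulated data, with changes put only into genes well above the floor. Most of the granule genes were dimmer than those, so the simulation does not bear on them or on bounds. Python 3.11.15, numpy 2.4.6, pandas 2.3.3, scipy 1.17.1, statsmodels 0.14.6 and matplotlib 3.10.9 were used.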

Additional observations from a re-analysis of the deposited data

How the results depend on the processing

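All 64 ratios that the 9 granule genes had under the 8 alternatives kept the sign of the reported value. When floors were raised to the 75th percentile, the count of genes at least 2-fold lower went from 2 to 0, over the 2 genes that still had a ratio, and the median log2 ratio was -0.93, because fewer genes were above that floor. The count was 3 with the floor at the 25th percentile, without a floor and after quantile normalization, and 2 in the other settings, while the count of higher genes was 0 in all 8. Averaging probe sets changes nothing here by construction, since each gene has 1. Of 483 values of the related lists and of the other named genes under these alternatives, 435 stayed within 0.21 log2, or within 1.5 times for a count, 48 moved further and 0 of those past 2-fold turned sign. No paired analysis was possible because each label has 1 array. Signals near the floor limit what can be said of Camp, Ltf and the primary granule genes.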
